A study of Mus musculus with 20 samples.

Results

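The miR-379 to miR-410 cluster is a group of miRNA hairpins on mouse chromosome 12, in the imprinted Dlk1-Dio3 domain. Its members were taken by name, as every row of the deposited count tables named for 1 of 36 hairpins between Mir379 and Mir410. The rule used no measured value. It gave 72 rows, 1 for each 5p and each 3p mature arm, of 1886 mature miRNA rows in all. Of these 72 rows, 70 had at least 1 read and 59 passed the filter on low counts, as did 542 of the 1581 detected rows of the whole table.

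The series measured small RNA in primary midbrain neurons of C57Bl6/J mice. The ventral mesencephalon was taken on embryonic day 12.5, freed of the meninges, dissociated and grown in serum-free medium with B27 supplement. GDNF is a growth factor that supports dopaminergic neurons. The 4 groups were cultures collected on day 1 in vitro (DIV1) or day 5 in vitro (DIV5), each without GDNF (control) or with 10 ng/ml of it, and each group had 5 libraries. All groups share strain, embryonic stage, tissue and basal medium. The labels do not say whether replicates are separate cultures or animals, so a p-value here reflects no more than the spread among libraries, which may be technical.

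The hairpins of the cluster are cut from long RNAs made from the maternally inherited chromosome. Each hairpin yields a duplex from which 1 arm, the guide, is mostly loaded into Argonaute and pairs with target mRNAs through its seed, bases 2 to 8. In neurons the transcription factor Mef2 drives the cluster in an activity-dependent way. miR-134 is known for limiting dendritic spine size through Limk1. On build mm10 (GRCm38, GENCODE vM21 annotation) the hairpins lie on the plus strand of chromosome 12, from 109709060 to 109743795, a span of 34736 bp. In the annotation 24 of the hairpins lie outside other genes. The other 12 lie in the lincRNA gene Mirg, 8 of them overlapping an exon and 4 in an intron. Antisense annotation covers 5 hairpins, among them Mir299b opposite Mir299a. Whether the counting used strand is not given in the sources used here, but both miR-299b rows held 0 reads, against 21 for miR-299a-5p and 1549 for miR-299a-3p over all libraries.

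The mature sequences of 68 of the 72 arms were found in RefSeq (build GRCm38.p6). Those that carry the results below are shown 5′ to 3′ with the seed in capitals. The first set holds the 6 arms with the highest mean level.
miR-541-5p: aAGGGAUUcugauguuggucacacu
miR-410-3p: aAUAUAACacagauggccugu
miR-411-5p: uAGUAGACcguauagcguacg
miR-381-3p: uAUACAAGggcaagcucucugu
miR-300-3p: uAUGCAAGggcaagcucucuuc
miR-409-3p: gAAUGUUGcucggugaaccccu
The second set holds other arms that rose or fell most between the days, or that stood high in a pair of DIV5 control libraries.
miR-411-3p: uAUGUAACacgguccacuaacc
miR-379-5p: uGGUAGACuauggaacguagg
miR-376b-5p: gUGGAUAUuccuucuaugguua
miR-494-3p: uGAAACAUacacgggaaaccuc
miR-369-3p: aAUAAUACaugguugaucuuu
miR-382-3p: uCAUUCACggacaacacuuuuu
miR-382-5p: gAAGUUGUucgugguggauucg
miR-154-3p: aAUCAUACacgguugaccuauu
miR-377-3p: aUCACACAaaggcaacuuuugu
miR-323-3p: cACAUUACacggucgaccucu
miR-679-5p: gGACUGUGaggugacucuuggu
miR-1197-3p: uAGGACACauggucuacuucu
miR-758-3p: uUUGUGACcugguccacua
miR-544-5p: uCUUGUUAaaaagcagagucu
The third set holds the partners that share a seed with an arm of the second set: miR-379-3p has that of miR-411-3p, miR-1193-5p that of miR-379-5p, and miR-376c-5p that of miR-376b-5p.
miR-379-3p: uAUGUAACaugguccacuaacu
miR-1193-5p: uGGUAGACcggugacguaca
miR-376c-5p: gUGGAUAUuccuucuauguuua
The 68 sequences had 63 different seeds, and 5 seeds were shared by a pair of members each. The letters GGU stood within the seed of 19 of 35 members' 5p arms (54.3%), against 99 of 662 other 5p arms with a RefSeq sequence (15%). These other arms were taken whether or not they were rows of the count tables. Among 3p arms the motif was in 2 of 33 members (6.06%) and 45 of 676 others (6.66%). miR-376b-5p and miR-376c-5p differ at 1 of 22 aligned bases, miR-379-3p and miR-411-3p at 2 of 22, and miR-300-3p and miR-381-3p at 3 of 22. How reads that fit several of these arms were assigned is not given in the sources used here, so the split between such arms is uncertain.

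Total miRNA counts were between 420118 and 1761023 per library at DIV1 and between 1061619 and 4324505 at DIV5. One read stood for 0.231 to 2.38 CPM, the unit that scales each library to the same total. Summed neuronal miRNAs (miR-124, miR-128, miR-9 and miR-137), the list used here for the labelled cell type, were present in every library at 53014 to 103950 CPM. The top row of this list was miR-9-5p, and the sum does not by itself establish that the cells were neurons. DIV5 control replicates 1 and 5 stood apart from the other DIV5 libraries for part of the cluster, as described below. The counts of called members in each comparison with the DIV5 controls are therefore given with and without them. Counts of groups without overlap, of replicate pairs, and of calls by stretch or by arm are given with all libraries only. So are the log2 values of the arms that fell. At DIV5, replicates 1 and 2 of both groups also had 17.7% to 19.5% of reads outside annotated miRNAs, against 9.51% to 13.3% in replicates 3 to 5.

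The cluster's share of all miRNA counts was above every DIV1 share in all DIV5 libraries but control replicate 2, and on each day the means with and without GDNF differed by less than 1 SD. In the DIV1 controls, replicates 1 to 5, the share was 4.42%, 3.19%, 3.1%, 3.22% and 3%, and in the DIV1 GDNF libraries it was 4.25%, 3.37%, 3.55%, 3.16% and 3.13%. In the DIV5 controls it was 6.84%, 4.11%, 6.77%, 6.53% and 8.95%, and in the DIV5 GDNF libraries it was 6.03%, 4.83%, 6.65%, 6.79% and 6.08%. Replicate 1 was the highest in both DIV1 groups, and replicate 2 the lowest in both DIV5 groups. The means were 3.39% ± 0.585 and 3.49% ± 0.458 at DIV1 without and with GDNF, and 6.64% ± 1.72 and 6.08% ± 0.774 at DIV5 (SD, n = 5). Without DIV5 control replicates 1 and 5 the DIV5 control mean was 5.8% ± 1.47 (SD, n = 3). These sums over members are a description and were given no test.

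**Figure D1:**
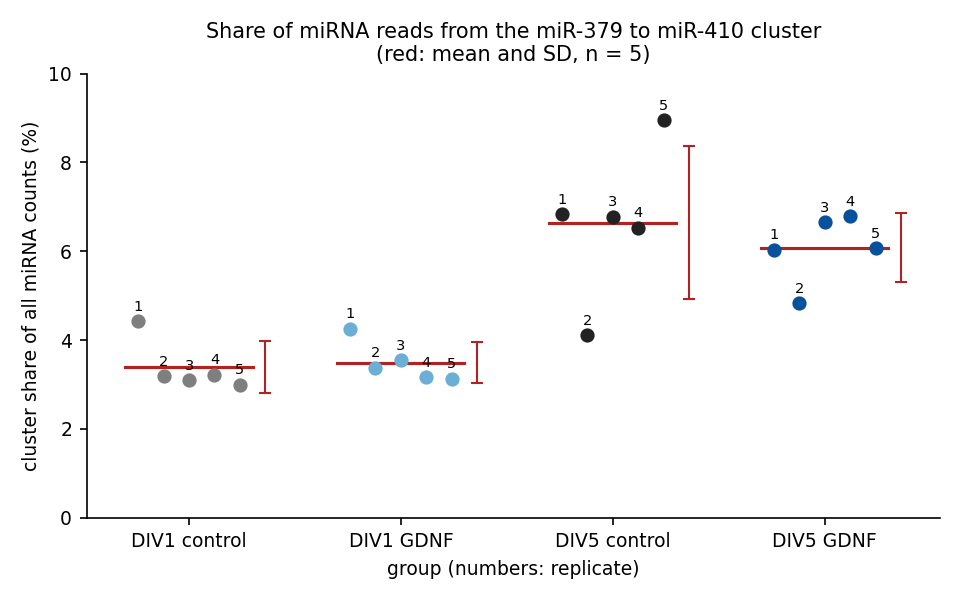
Share of all miRNA counts that came from the cluster (vertical axis, %) in each of the 20 libraries, by group, with the replicate number above each point and the mean and SD of 5 libraries in red. DIV5 control replicate 2, at 4.11%, is the only DIV5 library below the highest DIV1 library, at 4.42%.

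Few arms made up most of these reads. miR-541-5p alone held 29.1% of the cluster's summed mean CPM, the 3 most abundant arms held 62.3% and the top 8 held 85.5%. Means over the 20 libraries reached 1000 CPM for 6 arms, 100 CPM for 29 and 10 CPM for 49. In CPM scaled by the trimmed mean of M-values (TMM), used for all levels below, miR-541-5p was above miR-410-3p in 20 of 20 libraries. The next arms in the order were not separated from their neighbours in every library: miR-410-3p was above miR-411-5p in 13 of 20, miR-411-5p above miR-381-3p in 18 of 20, and miR-381-3p above miR-300-3p in 18 of 20. miR-300-3p was above miR-409-3p in 10 of 20, whereas miR-409-3p was above miR-323-3p in all 20.

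The level of miR-541-5p in the DIV1 controls was 14796, 9103, 10653, 11048 and 8959.9 CPM, and in the DIV5 controls 22909, 10945, 14273, 14350 and 30385 CPM. Replicates 1 and 5 were above every DIV1 control, and replicates 2, 3 and 4 lay within the DIV1 range. The level of miR-410-3p was 7631, 6259, 5288, 5406 and 4929.9 CPM in the DIV1 controls and 6288, 8102, 13654, 13741 and 9944 CPM in the DIV5 controls. Here replicates 3 and 4 were highest and replicate 1 lay within the DIV1 range, so the leading arms did not rank the DIV5 controls alike. The level of miR-411-5p was 5838 ± 993 CPM at DIV1 and 8062 ± 1139.8 CPM at DIV5 without GDNF (SD, n = 5).

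**Figure D2:**
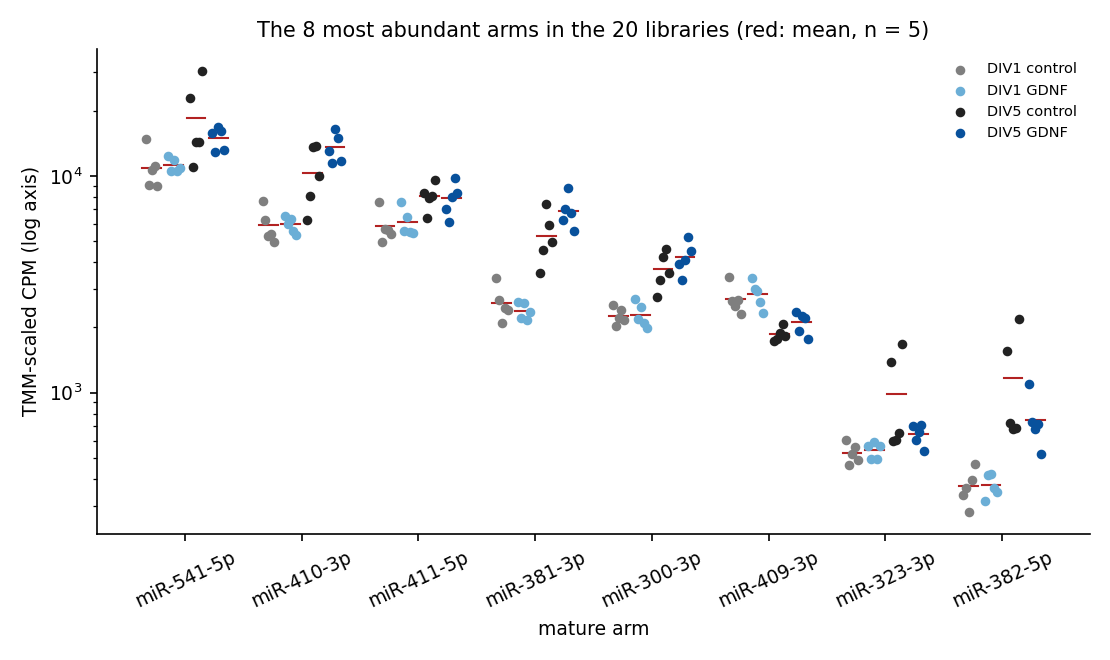
TMM-scaled CPM (vertical log axis) of the 8 most abundant arms in the 20 libraries, coloured by group, with the mean of 5 libraries as a red line. The black points of miR-541-5p, miR-323-3p and miR-382-5p show a pair of DIV5 controls above the other libraries, and those of miR-409-3p lie below all DIV1 controls.

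From DIV1 to DIV5 without GDNF, most tested arms of the cluster rose. In edgeR's quasi-likelihood test, with Benjamini-Hochberg adjustment over all 542 tested rows and a call at an adjusted p below 0.05, 40 of 59 members were called, against 60.7% of all tested rows, so calls as such were about as common as elsewhere. Their direction was mostly upward: 36 members were called higher, against 31.4% of all tested rows, and 4 lower, against 29.3%. The median log2 fold change was 0.81 over the members and 0.10 over all tested rows. Without DIV5 control replicates 1 and 5, 28 of 58 members were called (53.8% of all rows), 24 of them higher (27.4% of all rows) and 4 lower (26.4%), with medians of 0.51 and 0.03. All 24 arms called higher in that fit were among the 36. Without a model, 21 of 59 members had every DIV5 control above every DIV1 control (20.1% of all tested rows) and 3 had every DIV5 control below (19.2%).

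The largest increases belonged to the minor arm of Mir411 and to arms of Mir379 and Mir376b. miR-411-3p had 48.5, 54.1, 62.9, 73.3 and 57.3 CPM in the DIV1 controls and 1166, 103, 168, 151 and 1494 CPM in the DIV5 controls. All DIV5 controls were above all DIV1 controls, and replicates 1 and 5 were far above the other DIV5 controls. Its log2 fold change was 3.39 ± 0.62 (SE, adjusted p = 0.00014), and without those replicates 1.29 ± 0.23 (SE, adjusted p = 0.000107).
miR-379-5p, with the first hairpin of the cluster, had 84.2, 55, 64.3, 75.9 and 94.5 CPM and 1169, 139, 215, 168 and 1473 CPM in the same order. The groups did not overlap, with the same pair of libraries on top. The log2 fold change was 3.09 ± 0.56 (SE, adjusted p = 0.000142) with and 1.25 ± 0.24 (SE, adjusted p = 0.000159) without that pair. For miR-376b-5p the levels were 12.8, 10.1, 14, 14.4 and 4.65 CPM at DIV1 and 140.0, 39.5, 55, 49.7 and 198 CPM at DIV5. The log2 fold change was 3.09 ± 0.41 (SE, adjusted p = 2.49e-06) and, without DIV5 control replicates 1 and 5, 2.11 ± 0.27 (SE, adjusted p = 1.77e-06), which was the steepest rise of the 8 arms named for their increase in that fit.

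Of the 36 arms called higher, 12 were not called without that pair, and 1 of these 12 was not tested in that fit. Among the 8 arms named for the largest called increase (those averaging 10 CPM or more), miR-494-3p was the 1 that lost its call. Its DIV1 control levels were 24.9, 27.5, 6.99, 26.2 and 18.6 CPM and its DIV5 control levels 149, 8.89, 23.7, 21.5 and 300.2 CPM. Replicates 2, 3 and 4 lay within the DIV1 range. The log2 fold change was 2.26 ± 0.69 (SE, adjusted p = 0.00898) with all libraries and -0.14 ± 0.34 (SE, adjusted p = 0.754) without the pair.

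The other 4 of these 8 arms, miR-369-3p, miR-382-3p, miR-382-5p and miR-487b-3p, had smaller values without the pair and remained called. miR-369-3p, an arm known for binding AU-rich elements, had a mean of 123 ± 26.4 CPM at DIV1 and 469 ± 335 CPM at DIV5 (SD, n = 5). Its log2 fold change was 1.93 ± 0.33 (SE, adjusted p = 6.58e-05), against 0.97 (adjusted p = 0.000116) without the pair. Both arms of Mir382 rose, miR-382-3p by 1.82 (adjusted p = 2.49e-06) and miR-382-5p by 1.66 (adjusted p = 6.24e-05) on the log2 scale. Without the pair these were 1.31 (adjusted p = 1.77e-06) and 0.93 (adjusted p = 0.000159).
miR-487b-3p had 356, 299.6, 359, 373 and 321 CPM in the DIV1 controls and 1217, 768, 882, 993 and 1622 CPM in the DIV5 controls. Every DIV5 control was more than 2-fold above every DIV1 control, and the log2 fold change moved from 1.68 (adjusted p = 7.26e-08) to 1.39 (adjusted p = 8.34e-08) without the pair.

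Among the most abundant arms, miR-381-3p and miR-410-3p rose more without DIV5 control replicates 1 and 5 than with them. The log2 fold change of miR-381-3p was 1.02 ± 0.17 (SE, adjusted p = 3.07e-05) with all libraries and 1.21 without the pair, and that of miR-410-3p was 0.81 (adjusted p = 0.000599) and 1.03. miR-300-3p had 0.71 (adjusted p = 0.000181) and 0.87. The calls of miR-541-5p (0.77, adjusted p = 0.00317), miR-323-3p (0.90, adjusted p = 0.00236) and miR-411-5p (0.47, adjusted p = 0.0074) were lost without the pair. Their values were then 0.30 (adjusted p = 0.0898), 0.25 (adjusted p = 0.0683) and 0.37 (adjusted p = 0.0502). miR-134-5p rose by 0.60 on the log2 scale (adjusted p = 0.00205) and by 0.57 (adjusted p = 0.00545) without the pair. It is given for its known role, after its value was seen.

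The 4 arms that fell were miR-679-5p, miR-1197-3p, miR-758-3p and miR-409-3p, and all 4 stayed called without the pair. miR-679-5p had 156, 94.4, 83.9, 98.1 and 57.3 CPM in the DIV1 controls and 28.3, 23.7, 53.2, 41.5 and 40 CPM in the DIV5 controls, with no overlap and a log2 change of -1.38 ± 0.28 (SE, adjusted p = 0.000305). miR-409-3p, the most abundant of the 4, went from 2710.3 ± 425 to 1855 ± 138 CPM (SD, n = 5), a log2 change of -0.55 ± 0.12 (SE, adjusted p = 0.000578). Its partner miR-409-5p had values of 0.55 (adjusted p = 0.196) without and 0.97 (adjusted p = 0.0301) with GDNF. miR-1197-3p went from 37 ± 10.3 to 19.5 ± 3.86 CPM, again with no overlap (log2 -0.92, adjusted p = 0.0028). miR-758-3p had 521 ± 112 and 316 ± 81.3 CPM (log2 -0.72, adjusted p = 0.00403), and its highest DIV5 control was above the lowest DIV1 control.

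With GDNF 30 of 59 members were called between the days, against 52.4% of all tested rows. Of these, 27 were higher (25.1% of all tested rows) and 3 lower (27.3% of all rows). The median log2 fold change was 0.56 over the members and 0.0017 over all tested rows. This comparison shares no library with the one without GDNF, but both use the spread estimated from all libraries. Of the 36 arms called higher without GDNF, 23 were called higher with it, which is 63.9% of the first list and 85.2% of the second. In the fit without DIV5 control replicates 1 and 5, which leaves these libraries as they are and changes the estimated spread, the factors and the rows tested, 38 of 58 members were called (60.2% of all rows), 35 higher (31.5%) and 3 lower (28.7%). In both day comparisons and in both fits, 22 arms were called higher and 3 lower, the latter being miR-409-3p, miR-679-5p and miR-758-3p. Such overlaps between comparisons were not counted over all tested rows, so whether they are larger in the cluster than elsewhere is not known. No member had every DIV5 GDNF library below every DIV1 GDNF library (18.3% of all tested rows did), and 23 had every one above (18.6%).

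miR-381-3p had 2611, 2216, 2584, 2156 and 2342 CPM in the DIV1 GDNF libraries and 6241, 7066, 8800, 6743 and 5562 CPM in the DIV5 GDNF libraries, and rose by 1.53 on the log2 scale (SE 0.17, adjusted p = 2.58e-07). Every DIV5 library was at least at 5562 CPM and every DIV1 library at most at 2611 CPM. miR-410-3p rose by 1.18 (adjusted p = 1.56e-05), miR-487b-3p by 1.32 (adjusted p = 1.36e-06) and miR-376b-5p by 1.75 (adjusted p = 0.0011). The rare arm miR-544-5p had 1.39, 0, 0.623, 1.99 and 2.6 CPM at DIV1 and 7.52, 12.8, 10.9, 11.2 and 12.5 CPM at DIV5, and its log2 fold change of 3.31 ± 0.49 (SE, adjusted p = 1.06e-05) starts from levels near those of single reads. miR-411-3p (1.13, adjusted p = 0.111) and miR-379-5p (0.49, adjusted p = 0.436) were not called with all libraries. They were called in the fit without DIV5 control replicates 1 and 5, at adjusted p = 8.58e-05 and 0.0326, with similar log2 values of 1.17 and 0.53.

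Along the cluster, the first 12 hairpins held 3 of the 4 arms that fell, and the middle 12 held none. Of 19 tested arms of the first 12 hairpins, 10 were called higher without GDNF and 3 with it. Of 18 arms of the middle 12 hairpins (Mir543 to Mir544), 14 and 13 were, and of 22 arms of the last 12 hairpins, which are those within Mirg, 12 and 11. Over all tested rows, 31.4% were called higher and 29.3% lower without GDNF, and 25.1% were called higher with it. The first 12 hairpins with GDNF were below that last share. The medians by stretch were 0.43, 1.05 and 0.77 without GDNF, and 0.25, 1.02 and 0.54 without DIV5 control replicates 1 and 5. With GDNF they were 0.15, 0.92 and 0.68. These 3 stretches were set without regard to values, and no test was made between them. By arm, 15 of 25 tested 5p arms and 21 of 34 tested 3p arms were called higher without GDNF, against 31.4% of all tested rows.

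**Figure D3:**
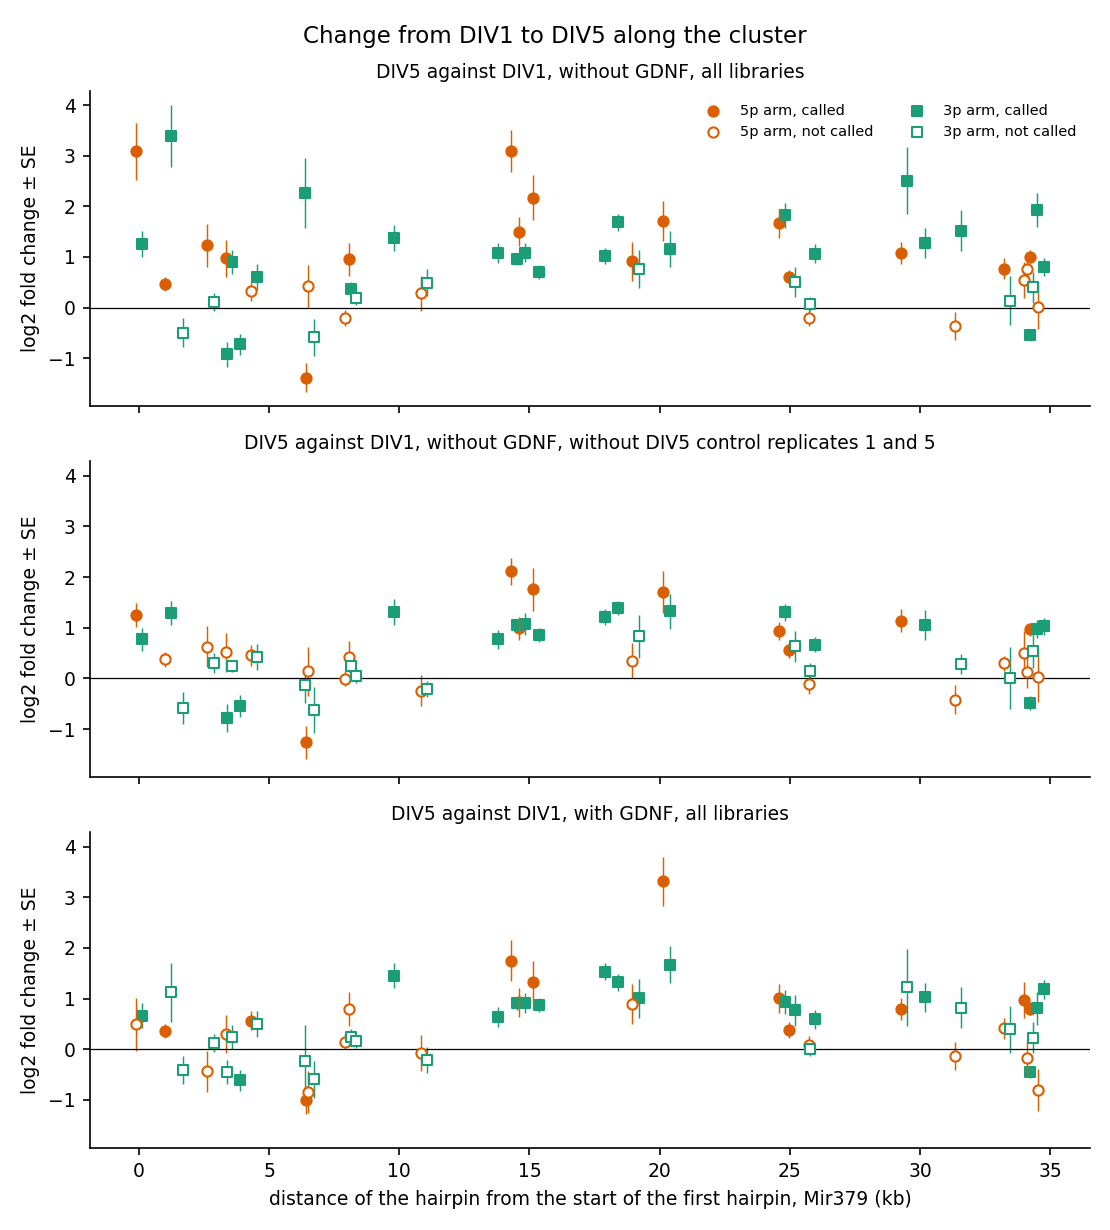
Log2 fold change of DIV5 against DIV1 (vertical axes, with SE) of each tested arm against the distance of its hairpin from the start of Mir379 (horizontal axis, kb), with 5p arms as circles, 3p arms as squares and called arms filled. From top to bottom the panels show cultures without GDNF, the same without DIV5 control replicates 1 and 5, and cultures with GDNF, and the points of the first hairpins (miR-379-5p and miR-411-3p) drop from 3.09 and 3.39 in the first panel to at most 1.29 in the others.

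The other miRNAs of the Dlk1-Dio3 domain, which lie upstream of the cluster, had 34 rows, of which 26 were tested. Without GDNF, 17 were called higher and 1 lower between the days, against 31.4% and 29.3% of all tested rows, with a median log2 fold change of 0.89. With GDNF, 19 were called higher and 1 lower (median 0.97), against 25.1% and 27.3% of all tested rows. Without DIV5 control replicates 1 and 5 the counts without GDNF were 18 and 1 (median 0.93), against 27.4% and 26.4%. Their share of all counts was 3.93% ± 0.633 in the DIV1 controls and 7.33% ± 1.37 in the DIV5 controls (SD, n = 5).
Marker miRNAs of other cell types moved over the same days. The summed level of 9 smooth muscle and mesenchymal rows was 2627 to 4730.1 CPM in the DIV1 controls and 683 to 1692 CPM in the DIV5 controls, with 3 of 6 tested rows called lower. The 9 neuronal rows summed to 53014 to 88043 CPM and 81788 to 98668 CPM, with 5 called higher and 2 lower. The 6 erythroid rows summed to 2100 to 2856 CPM and 3802 to 5938 CPM, with 1 of 3 tested rows higher and 2 lower, and miR-486b-3p listed at 0. The 5 oligodendrocyte rows summed to 697 to 887 CPM and 396 to 628 CPM, with 1 of 3 tested rows called higher and 2 lower. Leukocyte rows summed to 55.3 to 96.3 CPM and 6.96 to 41.4 CPM, with the 1 tested row called lower. Endothelial rows summed to 47.3 to 140.6 CPM and 20.5 to 73.4 CPM, also with the 1 tested row lower. Epithelial rows summed to 56.5 to 85.9 CPM and 49.9 to 65.3 CPM, with 2 of 2 tested rows lower. In any library these 3 lists were at most at 101, 140.6 and 102 CPM, and miR-126a-5p, miR-219a-5p and miR-200c-5p were listed at 0. The part of the cell makeup in the day changes was not tested, and in such bulk samples a change in the number of cells of a type and a change in RNA per cell cannot be told apart.

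In DIV5 control replicates 1 and 5, part of the cluster was higher than in the other DIV5 controls. The mean of these replicates was at least 2-fold that of the other 3 DIV5 controls for 19 of 59 members, against 13.7% of all tested rows. This fold is a description of libraries already known to stand apart, so it was given no test. The 19 arms were miR-494-3p, miR-411-3p, miR-379-5p, miR-154-3p, miR-377-3p, miR-376b-5p, miR-369-3p, miR-382-5p, miR-667-3p, miR-412-5p, miR-323-3p, miR-539-5p, miR-380-5p, miR-667-5p, miR-382-3p, miR-376a-5p, miR-543-5p, miR-379-3p and miR-541-5p. In 24 of 59 members both replicates were above all 8 other DIV5 libraries (19% of all tested rows), and 20 members had a mean below that of the other 3 controls (52.4% of all tested rows).

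The arms with the largest ratios were miR-494-3p (12.5-fold), miR-411-3p (9.45-fold), miR-379-5p (7.59-fold), miR-154-3p (7.37-fold) and miR-377-3p (4.46-fold). miR-154-3p had 28.3, 0.987, 6.72, 6.36 and 40.8 CPM in the DIV5 controls and 4.51, 4.67, 5.21, 7.24 and 5.46 CPM in the DIV5 GDNF libraries. miR-377-3p had 264, 81, 80.7, 104 and 528 CPM and 120.4, 87, 119, 120.3 and 87.9 CPM in the same order. In both arms control replicate 5 was highest and replicate 1 next.
The abundant arms miR-410-3p (0.686-fold), miR-381-3p (0.716-fold) and miR-300-3p (0.778-fold) were lower in the mean of the pair than in the other 3 controls. The pattern also split hairpins: 16 hairpins had an arm past 2-fold, both arms were tested in 15 of them, and both were past 2-fold in 3 (Mir379, Mir382 and Mir667). For Mir411 the ratios were 9.45 for the 3p arm and 1.203 for the 5p arm, for Mir154 7.37 and 0.948, and for Mir377 4.46 and 0.975. In Mir376b the order of the arms was the other way round, with 3.52 for the 5p arm and 0.876 for the 3p arm. These 2 libraries had 89938 and 81788 CPM of neuronal rows, against 92445 to 98668 CPM in the other DIV5 controls, and 73.4 and 46 CPM of the endothelial miR-126a, against 20.5 to 25.4 CPM. Erythroid rows were also lower in both (3802.5 and 4066.5 against 4883 to 5938 CPM). Oligodendrocyte rows (529 and 628 against 396 to 449 CPM) and epithelial rows (65.3 and 64.1 against 49.9 to 58.9 CPM) were higher in both. Mesenchymal rows (1692 and 683 against 801 to 1216 CPM) and leukocyte rows (15.8 and 6.96 against 10.6 to 41.4 CPM) did not set both apart in the same direction. These sums do not speak for every row. In the neuronal, erythroid and mesenchymal lists 1 row each was at least 2-fold higher in the mean of the pair. In the oligodendrocyte, epithelial and leukocyte lists 0 rows were. The totals of these 2 libraries were 1838544 and 4022828 counts, within the range of the other DIV5 controls. The part of these differences in the raised arms was not tested.

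**Figure D4:**
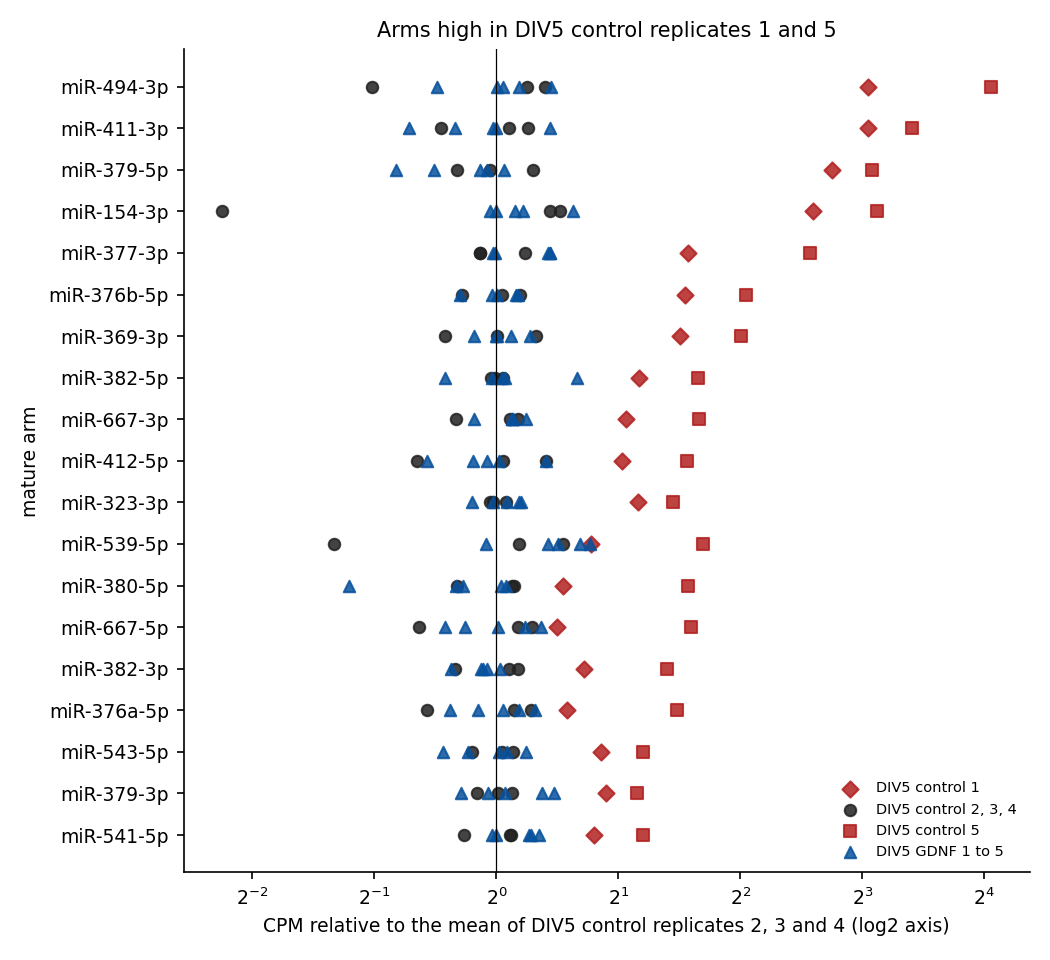
Level of the 19 raised arms in each DIV5 library, relative to the mean of DIV5 control replicates 2, 3 and 4 (horizontal log2 axis), with DIV5 control replicates 1 and 5 in red, the other DIV5 controls in black and the DIV5 GDNF libraries in blue. The red points lie right of all others in each arm, from about 2-fold for miR-541-5p (mean of the pair) to 12.5-fold for miR-494-3p.

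GDNF against control at DIV5 gave no called member. In edgeR 0 of 59 members were called, against 0.185% of all tested rows (1 of 542). At an unadjusted p under 0.05 there were 17 members, among 88 rows in all, and DESeq2 called 3 members of 26 calls (4.8% of all rows). The smallest adjusted p belonged to miR-379-5p, miR-411-3p and miR-494-3p, the 3 arms that DESeq2 called. miR-379-5p had 122, 98.1, 182, 159 and 165 CPM with GDNF, all below or within the range of DIV5 control replicates 2, 3 and 4 given above (139 to 215 CPM), and a log2 change of -2.12 ± 0.53 (SE, adjusted p = 0.055). miR-411-3p had 111, 85.9, 140.8, 138 and 191 CPM with GDNF and a log2 change of -2.21 ± 0.57 (SE, adjusted p = 0.0592). miR-494-3p had 24.6, 12.8, 18.1, 20.5 and 18.7 CPM with GDNF and a log2 change of -2.42 ± 0.66 (SE, adjusted p = 0.0697).

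Without DIV5 control replicates 1 and 5 the values of these arms were -0.28, -0.09 and -0.03 on the log2 scale, each with an adjusted p of 0.999. In that fit 0 of 58 members were called (0% of 530 rows), 0 members and 8 rows had an unadjusted p under 0.05, and the members' median was 0.03, against -0.14 with all libraries. Members were called when 1 of the other DIV5 controls was left out. Without replicate 2, 9 members were called lower with GDNF (5.65% of all rows), namely miR-154-3p, miR-323-3p, miR-369-3p, miR-376b-5p, miR-379-5p, miR-382-3p, miR-411-3p, miR-494-3p and miR-667-3p, all of them among the 19 raised arms. Without replicate 3, 5 were called lower (4.95% of all rows) and 1 higher (0.916% of all rows), the latter being miR-381-3p (log2 0.53, adjusted p = 0.0445). Without replicate 4, 6 were called lower (5.85% of all rows).
Deviations of same-numbered control and GDNF libraries of DIV5 from their group means were positively correlated. The best match was the same-numbered library only for control replicates 2 and 4, so pairing by number is uncertain. As an alternative, the comparison was also fitted with the replicate number as a block within each day. With all libraries this gave 0 called members (0.554% of 542 rows), 13 members among 90 rows with an unadjusted p under 0.05, and a smallest adjusted p of 0.0978 among the members. Without DIV5 control replicates 1 and 5 it gave 0 called members (0.755% of 530 rows), 6 members among 69 such rows, and a smallest adjusted p of 0.174. By replicate number, miR-381-3p, miR-410-3p and miR-544-3p were higher with GDNF in 5 of 5 pairs, 3 of 59 members against 7.38% of all tested rows. miR-379-5p, miR-411-3p, miR-376b-5p, miR-376b-3p, miR-382-3p and miR-487b-3p were lower in all 5, 6 members against 6.27% of all tested rows.

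At DIV1, GDNF gave 0 called members of 59 and 0 calls among all 542 rows (0%). In edgeR 1 member, miR-544-5p, was among 7 rows with an unadjusted p under 0.05, and DESeq2 also called none and had 1 member among 8 such rows. miR-544-5p had 1.35, 2.75, 5.59, 6.54 and 1.55 CPM without and 1.39, 0, 0.623, 1.99 and 2.6 CPM with GDNF, overlapping groups, with a log2 change of -1.59 ± 0.63 (SE, adjusted p = 1). The next smallest p-values belonged to miR-380-5p (0.81, adjusted p = 1) and miR-410-5p (0.81, adjusted p = 1). The median over the members was 0.04, and over all rows 0.03.

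The difference of the GDNF effects between the days, tested as an interaction, gave 0 called members (0% of all rows), 10 members among 50 rows with an unadjusted p under 0.05, and no call in DESeq2 (9 of 50). The members with the smallest p were miR-379-5p at -2.59 ± 0.75 (SE, adjusted p = 0.436), miR-380-5p at -1.67 ± 0.59 (SE, adjusted p = 0.436) and miR-411-3p at -2.26 ± 0.82 (SE, adjusted p = 0.456) on the log2 scale. Without DIV5 control replicates 1 and 5 the interaction values of these arms were -0.72, -1.02 and -0.12 (adjusted p = 0.997 for each), with 0 calls and 3 members among 16 rows with an unadjusted p under 0.05.

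Most hairpins gave most of their reads from the same arm in every library. Over all libraries 12 hairpins had more 5p and 24 more 3p reads, and 22 had at least 90% of their reads from 1 arm. In 31 of 36 the 5p arm held over 50% of reads either in every library with reads or in none. The counts of 24, 22 and 31 include Mir654, which had 1 read in 1 library. The 31 also include Mir544, whose arms had equal counts in DIV1 control replicate 5 and DIV1 GDNF replicate 5. The 5p arm gave 99.97% of the reads of Mir541 and 0.041% of those of Mir410. Arm ratios were tested with limma on log2 of 5p over 3p counts (0.5 added to each) over the 140 hairpins of the table with a mean of at least 10 counts in both arms, 23 of them members. Between DIV1 and DIV5 without GDNF, 7 of 23 members changed (30.4%), about the 30.7% of all 140 hairpins. Without DIV5 control replicate 5, 4 of 21 members did, among 23 of 133 hairpins. Mir376b, Mir379 and Mir300 moved toward the 5p arm, and Mir411, Mir377, Mir485 and Mir666 toward the 3p arm.

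For Mir379 the log2 ratio of 5p to 3p was 0.92, 0.65, 1.41, 1.20 and 1.11 in the DIV1 controls and 3.37, 1.35, 1.81, 1.34 and 3.45 in the DIV5 controls. Only replicates 1 and 5 were above the DIV1 range by more than 1, and the change of 1.21 ± 0.35 (SE, adjusted p = 0.0164) was 0.44 ± 0.20 (SE, adjusted p = 0.125) without them. For Mir411 the ratios were 7.27, 6.51, 6.48, 6.25 and 6.53 at DIV1 and 2.84, 5.95, 5.55, 5.74 and 2.68 at DIV5. All DIV5 values were below all DIV1 values, and the change was -2.06 ± 0.51 (SE, adjusted p = 0.00785) with and -0.86 ± 0.24 (SE, adjusted p = 0.0201) without the pair. Mir376b changed by 1.89 ± 0.41 (SE, adjusted p = 0.00278) and 1.08 ± 0.31 (SE, adjusted p = 0.0233).
Mir485, known for acting on the synaptic vesicle protein SV2A, went from 43.8% ± 6.65 5p reads in the DIV1 controls to 25.8% ± 8.02 in the DIV5 controls (SD, n = 5). Its log2 ratio changed by -1.21 ± 0.28 (SE, adjusted p = 0.00377) with and -0.79 ± 0.25 (SE, adjusted p = 0.041) without the pair. These 3 hairpins (Mir411, Mir376b and Mir485) were the ones called without DIV5 control replicates 1 and 5, 3 of 20 members against 16.2% of 130 hairpins.

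With GDNF, 1 of 23 member hairpins changed its arm ratio between the days (15.7% of all hairpins). It was Mir409, which went from 11.3% ± 4.68 to 24.2% ± 6.64 5p reads, a log2 change of 1.40 ± 0.40 (SE, adjusted p = 0.0195). No member was called without DIV1 GDNF replicate 3 or without DIV5 GDNF replicate 3 or 4, and 2 were without DIV1 GDNF replicate 1. Without GDNF its share went from 11.6% ± 1.68 to 21.4% ± 7.69, with a log2 change of 0.95 ± 0.40 (SE, adjusted p = 0.071). In the fit without DIV5 control replicates 1 and 5, 4 of 20 members were called with GDNF (23.8% of hairpins): Mir409 and Mir376b toward 5p, and Mir411 and Mir377 toward 3p. GDNF at DIV5 changed the arm ratio of 0 of 23 members (0% of 140 hairpins).

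**Figure D5:**
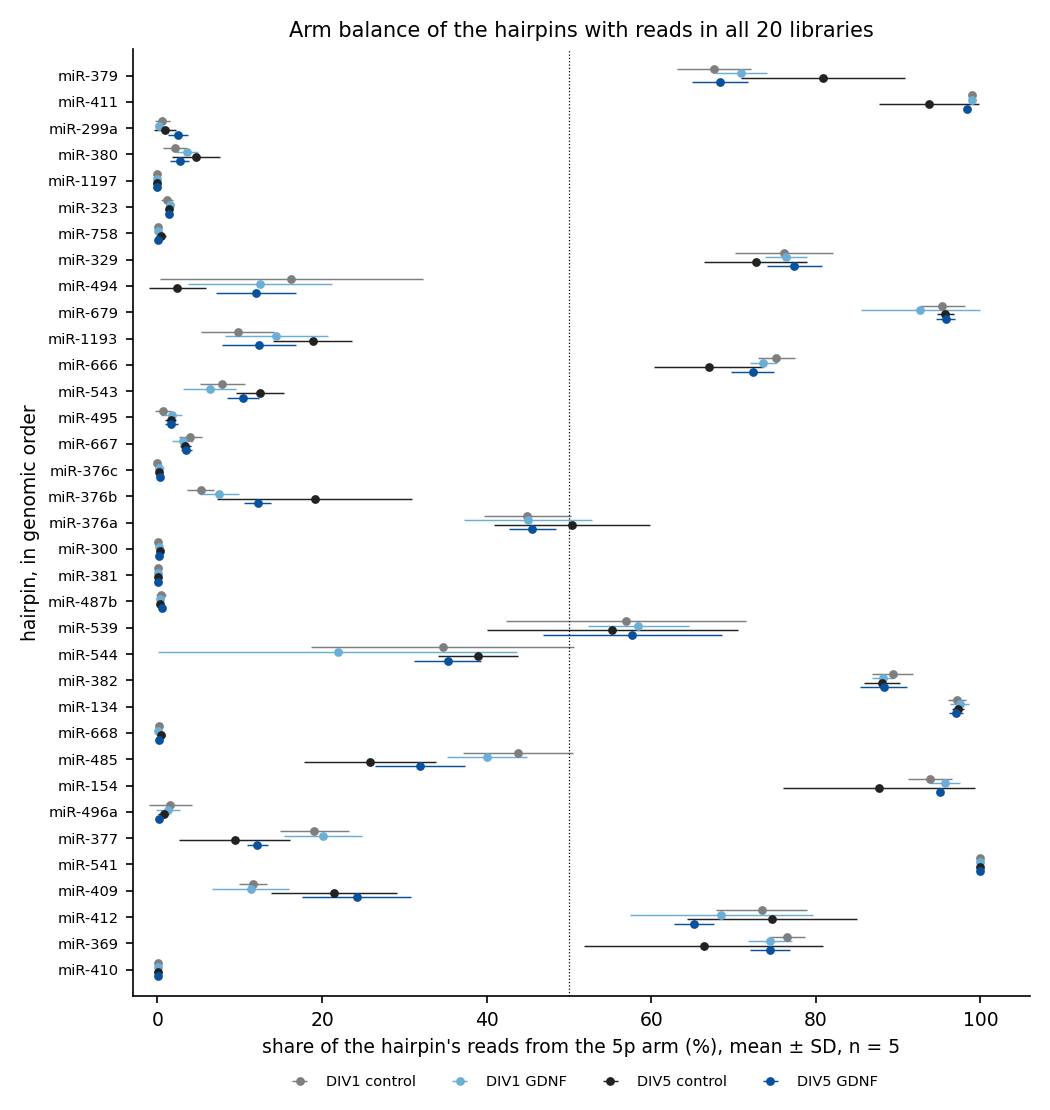
Share of each hairpin's reads that came from the 5p arm (horizontal axis, %, mean and SD of 5 libraries) for the 35 hairpins with reads in all 20 libraries, in genomic order and coloured by group. Most hairpins sit near 0% or 100% in all groups, and Mir376b, Mir377, Mir409 and Mir485 show separate DIV1 and DIV5 means.

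Members that share the seeds below were not counted at the same level. miR-379-3p and miR-411-3p are near-identical, as are miR-376b-5p and miR-376c-5p, so the split of reads within these pairs is uncertain. For the seed AUGUAAC, miR-379-3p had 35.8 ± 8.48 CPM and miR-411-3p 59.2 ± 9.44 CPM in the DIV1 controls (SD, n = 5). At DIV5 with GDNF they had 66.6 ± 14.3 and 133 ± 39.1 CPM. For GGUAGAC, miR-379-5p had 74.8 ± 15.7 and miR-1193-5p 4.39 ± 2.15 CPM in the DIV1 controls, where the ranges were 55 to 94.5 and 1.4 to 7.41 CPM. For UGGAUAU, miR-376b-5p had 2582 reads over all libraries and miR-376c-5p had 8, too few to be tested.

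The 13 members that did not pass the filter were, apart from those of Mir654, the arm with fewer reads of their hairpin. miR-1197-5p and miR-654-5p had 0 reads in all 20 libraries. This allows up to 0.694 to 7.14 CPM per library before TMM scaling (3 reads, counting error only, for reads that are not independent molecules). miR-654-3p had 1 read in all. The other 10 were miR-299a-5p, miR-758-5p, miR-494-5p, miR-679-3p, miR-495-5p, miR-376c-5p, miR-381-5p, miR-487b-5p, miR-668-5p and miR-496a-5p, with at most 29 reads in any library. Mir654 was thus the only hairpin of the 36 with no tested arm.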

How the data were processed

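Small RNA from 20 libraries was analysed from raw read counts per mature miRNA, which the authors deposited without normalization, 1 table per library. Per the submitters' processing notes they used cutadapt 1.8.1, STAR 2.4.1d and HTSeq with build mm10; the miRNA annotation is not given in the sources used here. Groups come from the sample titles. Counts were fitted in R 4.3.3 with edgeR 4.0.16 (filterByExpr, TMM, robust quasi-likelihood, 1 coefficient per group, two-sided). The SE is the size of the log2 fold change divided by the square root of F. Arm ratios used limma 3.58.1. Alternatives were DESeq2 1.42.0, limma voom, other factors and filters, a replicate block and leaving out libraries. The models were tested on simulated data. Tallies of reads without a feature (9.51% to 22.6% of a library) were left out. No near-identical libraries were found.

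Members and lists were chosen with earlier results of these data known. Named arms are the 8 most abundant, up to 8 largest called increases and decreases over the days without GDNF (arms averaging 10 CPM or more), the 3 smallest p of each GDNF comparison, and arms raised in DIV5 control replicates 1 and 5; others are named as partners or after seeing values. Deviations of same-numbered control and GDNF libraries correlated at 0.207 to 0.532 over tested rows at DIV5, and at 0.0223 to 0.508 at DIV1. Across days the values were -0.112 to 0.0146 without GDNF and -0.11 to 0.147 with it. The main fits did not pair libraries. Numbers were used as pairs only in the replicate blocks, within each day or across all groups, and in the counts of pairs at DIV5. The best match was the same number only for DIV5 control replicates 2 and 4, and for DIV1 control replicates 1, 3 and 5. The pairing is thus an assumption. The 542 tested rows held at least 99.9% of each library's counts.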

Additional observations from a re-analysis of the deposited data

Results flagged for a closer look

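In each of 88 sets of 5 libraries, the highest or lowest library was compared with the others, and 4 sets had a gap above Dixon's critical value of 0.71, where chance gives about 1 in 20. The cluster's share of counts in DIV1 control replicate 1 was 4.42%, against 3% to 3.22% in the other DIV1 controls. In the same library miR-411-5p was at 7543 CPM, against 4970 to 5678 CPM. miR-487b-3p was at 411.1 CPM in DIV1 GDNF replicate 1, against 301 to 331 CPM. miR-410-5p was at 7.52 CPM in DIV5 GDNF replicate 1, against 2.86 to 4.09 CPM. DIV5 control replicates 1 and 5 were not flagged in any set. The rule looks at a single extreme library, so libraries that stand apart together can escape it.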

How the results depend on the processing

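For the arms named by rule, 1264 alternative values kept their direction and their side of the threshold, 24 passed it newly, 25 no longer passed it and 3 reversed. The reversed values all belong to miR-494-3p: over the days without GDNF, leaving out DIV5 control replicates 1 and 5 gave -0.14, and over the days with GDNF the log2 value was 0.034 with no filter and -0.31 to 0.0048 with single libraries left out (highest without DIV1 GDNF replicate 4). For GDNF at DIV5, DESeq2 called 3 members, and leaving out single libraries gave 0 to 9 (9, 6 and 6 without DIV5 control replicates 2, 3 and 4). Arm ratios over the days without GDNF were called for 3 members without DIV5 control replicates 1 and 5, among 21 of 130 hairpins. With single libraries left out they were called for 4 to 9 members (4 without DIV5 control replicate 5), among 23 to 54 hairpins in all. With GDNF they were called for 4 members without the pair, among 31 of 130 hairpins. With single libraries left out they were called for 0 to 2 members, among 17 to 26 hairpins in all (2 without DIV1 GDNF replicate 1, and 0 without DIV1 GDNF replicate 3 or DIV5 GDNF replicate 3 or 4). Without miR-541-5p the mean cluster share was 2.37% (DIV1 control), 2.44% (DIV1 GDNF), 4.56% (DIV5 control) and 4.53% (DIV5 GDNF). With the replicate number as a block, 37 members were called over the days without GDNF and 30 with it, and the block within each day gave 0 for GDNF at DIV5, with and without the pair of libraries; it changed no other count of called members by over 1.5 times. Leaving out single libraries gave 33 to 43 called members over the days without GDNF, where 303 to 344 of all rows were called. It gave 24 to 35 with GDNF, where 257 to 304 of all rows were. Such fits tested 542 to 566 rows and 59 members. The cause of these changes was not tested. Shallow DIV1 libraries limit the rare arms, where 1 read is worth up to 2.38 CPM before TMM scaling.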
